A study of Mus musculus with 4 samples.

Results

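The factors of nonsense-mediated mRNA decay described here are Upf1, Upf2, Upf3a, Upf3b, Smg1, Smg5 and Smg6, 7 genes chosen by their symbols from the 22667 genes of the expression table. All 7 passed the minimum of 75 reads summed over the libraries, as did 12497 genes in all, and 110 of the 91656 splicing events listed for the series lie in them. The cells were N2a (Neuro-2a), a mouse neuroblastoma line. They were transfected for 48 h with non-targeting control siRNA (siControl) or with ARGLU1 siRNA (siARGLU1), then given ethanol vehicle (Veh) or 100 nM of the synthetic glucocorticoid dexamethasone (Dex) for 4 h. Each of the 4 groups is a pool of mRNA from 3 cultures, sequenced as 1 library, so no difference between groups has a replicate. The vehicle pair and the Dex pair of the knockdown share no library.

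Nonsense-mediated decay removes transcripts on which translation stops early, most often upstream of an exon junction complex left by splicing. UPF2 and a UPF3 protein link that complex to the helicase UPF1, the kinase SMG1 phosphorylates UPF1, and phosphorylated UPF1 recruits the endonuclease SMG6 or the adaptor SMG5, which brings in deadenylation and decapping. Transcripts of several of these factors are known to be targets of the pathway themselves, and UPF3A and UPF3B are paralogs of which UPF3B is the stronger activator.

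Between 66074574 and 86541444 reads per library fell on genes, and TMM factors lay between 0.984 and 1.01. Arglu1 had 10165 and 11825 reads in the siControl vehicle and Dex libraries and 2637 and 3254 in those of siARGLU1, so its scaled level after knockdown was 26.4% of siControl in vehicle and 22.5% in Dex. All 5 sympathetic neuroblast genes listed as a check of the cell label (Hand2, Gata3, Dbh, Th and Isl1) had reads in every library. Among them, knockdown log2 ratios were 2.001 and 2.01 for Dbh (vehicle, Dex), 1.16 and 1.54 for Gata3, and -1.26 and -0.90 for Th. The libraries carry a trend with the mappable length of a gene that touches every result on long genes. Over 12484 genes, the log2 ratio for knockdown had a Spearman's rho on mappable length of -0.398 under vehicle and -0.229 under Dex. The log2 ratio for Dex had one of -0.163 in siControl and 0.543 in siARGLU1. Genes share their libraries and are not independent replicates, so these are descriptions.

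One exon in these genes, a 39-nt cassette exon of Upf3b, was included less in both siARGLU1 libraries, and its sequence is shown first because the splicing results turn on it. The files place it at chrX:34639061-34639099 of mm9. In GENCODE M21 (GRCm38), an exon of this gene with the same length and the same flanking introns of 402 and 2047 nt is exon 5 of 7 in transcript Upf3b-202, at chrX:37099066-37099104 on the minus strand. It is annotated as coding, and its length is a multiple of 3. Transcript Upf3b-201 joins the neighbouring exons without it. In the transcript sequences below, read 5′ to 3′, capitals mark the 39-nt exon and lower case the 24 nt of the exons on each side.

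Upf3b 39-nt exon included: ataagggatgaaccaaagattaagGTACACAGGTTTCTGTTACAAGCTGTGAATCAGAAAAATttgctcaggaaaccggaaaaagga

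Upf3b 39-nt exon skipped: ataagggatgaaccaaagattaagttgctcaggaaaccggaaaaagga

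Of the marked bases, 35.9% were G or C and 35.9% were A.

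A second pair of transcripts is shown because it sets the form of the UPF1 helicase. The protein has a regulatory loop in a long and a short form, made by a pair of 5′ splice sites 33 nt apart. In GENCODE M21, Upf1-201 uses the downstream site (exon 7 of 118 nt, followed by an intron of 140 nt) and Upf1-202 the upstream site (exon 7 of 85 nt, followed by an intron of 173 nt), with coding sequences of 3372 and 3339 nt. The 33 nt lie at chr8:70339982-70340014 of GRCm38, minus strand. Capitals mark them, with 24 nt on each side.

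Upf1 downstream 5′ splice site: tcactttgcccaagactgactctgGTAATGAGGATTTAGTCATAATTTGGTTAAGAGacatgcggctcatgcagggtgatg

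Upf1 upstream 5′ splice site: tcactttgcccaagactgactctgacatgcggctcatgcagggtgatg

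Levels were compared between genes in cRPKM, the authors' read density over mappable positions per kilobase, scaled to library size. Intervals around levels and ratios are 95% intervals of counting error alone, and do not include variation between cultures. In siControl-Veh the order was Upf3a, Smg5, Upf1, Upf3b, Upf2, Smg6 and Smg1, from 89.3 down to 10.8 cRPKM, and no neighbouring intervals overlapped. The order in siControl-Dex was the same, from 91.2 to 10.9. Upf3a lay above 92.3% of the genes compared in siControl-Veh, and Smg1 above 49.5%. In the siARGLU1 libraries the first 4 places did not change, and the range widened: Upf3a was 8.26 times the lowest member in siControl-Veh and 8.35 times in siControl-Dex, against 18.5 times in siARGLU1-Veh and 14.8 times in siARGLU1-Dex. Smg1 (interval 5.91 to 6.21) and Smg6 (5.55 to 6.04) could not be ordered in siARGLU1-Veh, nor Smg1 (7.44 to 7.74) and Upf2 (7.31 to 7.82) in siARGLU1-Dex.

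**Figure D1:**
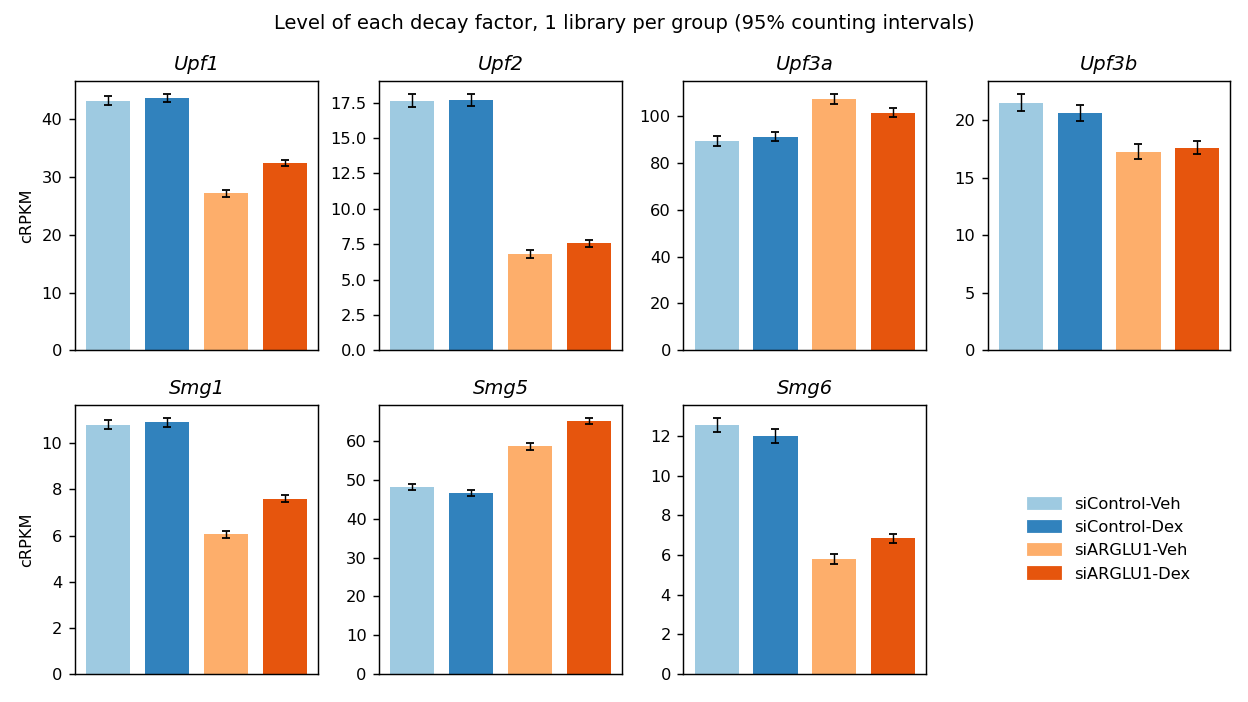
Level in cRPKM (vertical axis, from 0, a scale of its own in each panel) of the 7 decay factors in the 4 libraries, 1 library per bar, with 95% counting intervals. Upf2 and Smg6 are lowest relative to siControl in the siARGLU1 libraries, while Upf3a and Smg5 stand above it.

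The question of the knockdown comparison is how the decay factors' mRNA differed when ARGLU1, a splicing regulator and coactivator of the glucocorticoid receptor, was depleted. In both pairs the transcripts of Upf1, Upf2, Upf3b, Smg1 and Smg6 were lower in siARGLU1 and those of Upf3a and Smg5 were higher. At a log2 ratio of 0.81 or more (chosen as a size, without a test) Upf2 and Smg6 were lower in both pairs, that is 2 of 7 members, and 0 were higher. Among all genes compared, 8.77% were lower by this rule under vehicle and 5.93% under Dex, and 7% and 6.19% were higher. The members' median log2 ratio was -0.64 in vehicle and -0.44 in Dex, beside medians of 0.0038 and 0.0031 over all genes compared. With the trend on length removed, the members' medians were -0.36 and -0.29 and 1 member, Upf2, passed the size rule in each pair. By that rule 886 of 12484 genes were then lower in vehicle and 700 in Dex. With 1 library per group, the members' values cannot be set against variation between cultures. In these pooled libraries, less RNA per cell and fewer cells that carry the RNA cannot be told apart.

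Upf2, the bridge between UPF1 and the UPF3 proteins, was the lowest of the members relative to siControl. Its level was 17.7 cRPKM in each siControl library, from 5978 reads in vehicle and 6459 in Dex. It was 6.80 cRPKM in siARGLU1-Veh (2320 reads) and 7.56 after Dex (3353 reads). The siControl libraries lay close together and both siARGLU1 libraries lay far below them. The log2 ratio was -1.34 in vehicle (interval -1.41 to -1.27) and -1.23 under Dex (-1.30 to -1.17), which is 39.4% and 42.5% of the siControl level. Of the genes compared, 2.47% had a lower ratio in vehicle and 2.07% in Dex. With the trend on length removed, the log2 ratios were -1.08 and -1.11, and Upf2 was past 0.81 in both pairs in each of the 8 settings of scaling, filter and trend.

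Smg6, the endonuclease that cuts the target near the stop codon, showed the next lowest ratio. Its level was 12.6 and 12.01 cRPKM in the siControl vehicle and Dex libraries and 5.79 and 6.85 in those of siARGLU1, from 4819, 4960, 2237 and 3438 reads. Both siARGLU1 values were below both siControl values. The log2 ratio was -1.08 in vehicle (-1.16 to -1.01) and -0.82 in Dex (-0.88 to -0.75), just past the size rule in Dex. With the length trend removed these were -0.77 and -0.67, under the rule in both pairs. Smg6 passed it in 7 of 8 settings in vehicle and in 4 of 8 in Dex. The libraries do not mark strand, and GENCODE M21 lists 6 genes on the other strand that overlap Smg6. The protein-coding one, Srr, had between 362 and 583 reads per library, fewer than Smg6 in each, and log2 ratios of 0.19 and 0.24.

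Upf1, the helicase at the centre of the pathway, had 43.3 and 43.7 cRPKM in the siControl vehicle and Dex libraries and 27.2 and 32.5 in those of siARGLU1, with 13004, 14156, 8240 and 12780 reads. The siARGLU1 libraries were both below the siControl libraries and differed from each other. The log2 ratio was -0.64 in vehicle (-0.68 to -0.60) and -0.44 in Dex (-0.47 to -0.40), under the size rule in both, and -0.43 and -0.34 with the length trend removed. Cers1 overlaps Upf1 on the other strand and its reads, between 232 and 500 per library, cannot be told apart from Upf1 reads where the genes overlap. The log2 ratios of Cers1 were -1.08 and -0.66, on the same side of 0 as those of Upf1.

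Smg1, the kinase, is where the length trend had its largest effect among the members. Its level was 10.8 and 10.9 cRPKM in the siControl vehicle and Dex libraries and 6.06 and 7.59 in those of siARGLU1, from 11069, 12049, 6249 and 10175 reads. The log2 ratio of -0.80 in vehicle (-0.85 to -0.76) fell just short of the size rule and that in Dex was -0.53 (-0.57 to -0.49). In vehicle Smg1 passed the rule in 2 of 8 settings, at -0.84 with scaling to total reads and -0.82 in cRPKM, and in Dex in 0 of 8. Its mappable length of 15491 nt compares with a median of 2707 nt over the genes, and only 24 of 12484 genes were longer. The trend fitted at that length was -0.71 in vehicle and -0.36 in Dex, which left -0.09 and -0.17 for Smg1. With so few genes of that length the fit is thin there, and the part of length in the lower Smg1 level was not tested.

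Upf3a and Upf3b, the paralogs that contact the exon junction complex, lay on opposite sides of 0. Upf3b had 21.5 and 20.6 cRPKM in the siControl vehicle and Dex libraries and 17.3 and 17.6 in those of siARGLU1, from 3262, 3369, 2636 and 3493 reads. Its log2 ratio was -0.29 in vehicle (-0.36 to -0.21) and -0.24 in Dex (-0.31 to -0.17). Upf3a had 89.3, 91.2, 107 and 101 cRPKM in the same order of libraries, from 7986, 8789, 9665 and 11876 reads. Its log2 ratio was 0.30 in vehicle (0.25 to 0.34) and 0.15 in Dex (0.11 to 0.19). Removing the length trend left 0.064 and 0.019 for Upf3a, the shortest member (1353 nt), and -0.36 and -0.29 for Upf3b. The ratio of Upf3a to Upf3b was 4.15 and 4.43 in the siControl vehicle and Dex libraries and 6.22 and 5.77 in those of siARGLU1. The sources used here do not state how reads matching both paralogs were assigned.

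Smg5, the adaptor that leads to deadenylation and decapping, was higher in siARGLU1 against the direction of the length trend. Its level was 48.3 and 46.6 cRPKM in the siControl vehicle and Dex libraries and 58.7 and 65.3 in those of siARGLU1, from 14020, 14606, 17195 and 24853 reads. Both siARGLU1 values were above both siControl values. The log2 ratio was 0.32 in vehicle (0.28 to 0.35) and 0.48 in Dex (0.45 to 0.51), and 0.51 and 0.57 once the trend on its length of 4398 nt was removed. Per length, Smg5 was 3.84 times Smg6 in siControl-Veh and 3.88 times in siControl-Dex, against 10.1 times in siARGLU1-Veh and 9.53 times in siARGLU1-Dex. The effectors that act on phosphorylated UPF1 thus differed from siControl in opposite directions.

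**Figure D2:**
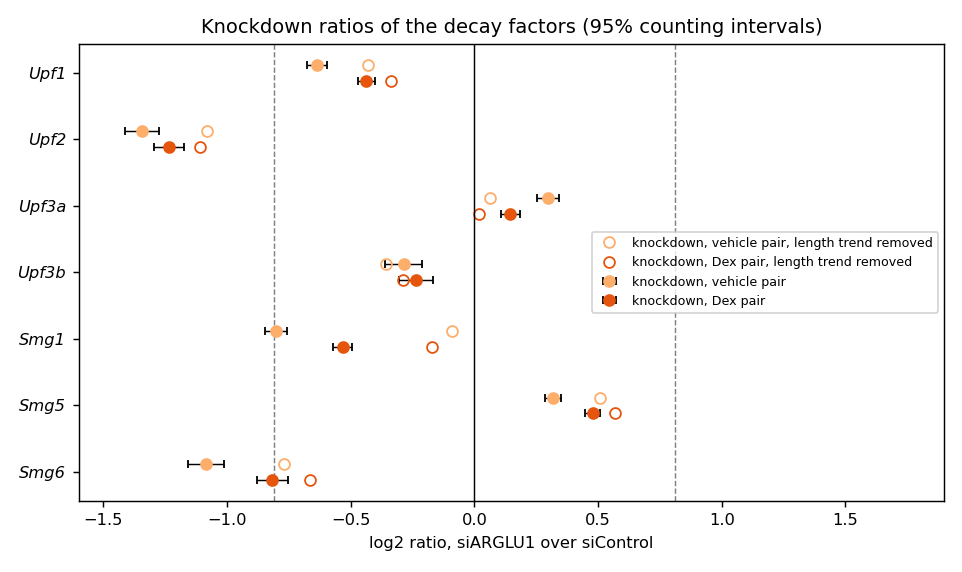
Log2 ratio of siARGLU1 over siControl (horizontal axis) for each decay factor in the vehicle and Dex pairs, with 95% counting intervals; open circles show the ratio after the trend on length was removed, and dashed lines mark 0.81. Upf2 lies past the dashed line with and without the trend, Smg1 moves close to 0 without it, and Smg5 moves further above 0.

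The knockdown ratios were closer to 0 in Dex than in vehicle for 6 of 7 members, and further from it for Smg5. The difference between the pairs (Dex minus vehicle, log2) was 0.27 for Smg1 (0.21 to 0.33), 0.27 for Smg6 (0.17 to 0.36), 0.20 for Upf1 (0.15 to 0.25) and 0.16 for Smg5 (0.12 to 0.20). It was 0.11 for Upf2 (0.017 to 0.20), -0.15 for Upf3a (-0.21 to -0.094) and 0.048 for Upf3b (-0.052 to 0.15). Without the length trend these differences lay between -0.079 and 0.10, and the order turned for Upf2 (-1.08 in vehicle, -1.11 in Dex) and Smg1 (-0.09 and -0.17), which left 4 of 7 members closer to 0 in Dex.

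Dex itself left the decay factors near their vehicle level. At a log2 ratio of 1 or more, 0 of 7 members passed in either direction in siControl or in siARGLU1, where 0.32% and 0.328% of all genes were higher and 0.144% and 0.064% lower. In siControl the members' ratios ran from -0.058 for Smg6 to 0.039 for Upf3a. In siARGLU1 they ran from -0.11 for Upf3a to 0.29 for Smg1, with 0.22 for Upf1, 0.21 for Smg6, 0.12 for Upf2, 0.12 for Smg5 and -0.0046 for Upf3b. The shortest member, Upf3a, thus had the lowest ratio there and the longest, Smg1, the highest. With the length trend removed, the siARGLU1 values lay between -0.021 for Smg1 and 0.14 for Upf1.

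**Figure D3:**
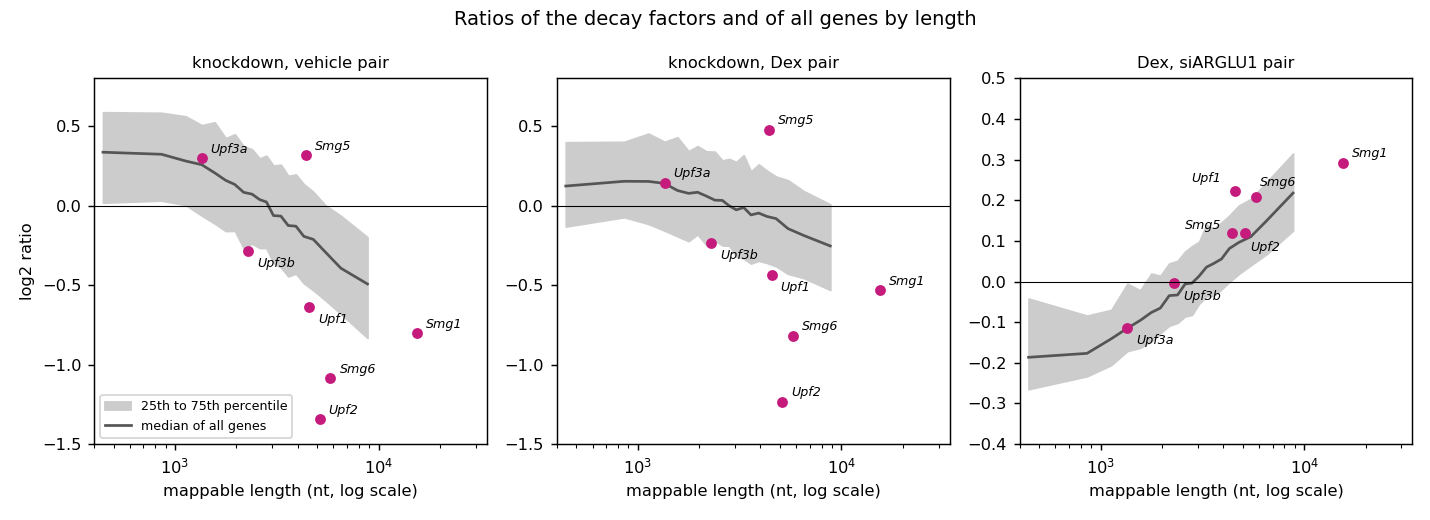
Log2 ratio (vertical axis) against mappable length in nt (horizontal axis, log scale) for knockdown in vehicle, knockdown in Dex and, on a vertical scale of its own, Dex in siARGLU1 cells; the line and band are the median and the 25th to 75th percentile of 12484 genes in 20 bins of length, and points are the 7 decay factors. Upf1, Upf2 and Smg6 lie below the band in both knockdown panels, Upf3b lies just below its lower edge and Smg5 above it, and Smg1 lies to the right of where the band ends; in the Dex panel Upf3a, the shortest member, is lowest and Smg1, the longest, is highest.

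Splicing was given as percent spliced in (PSI), the percentage of junction reads in which a given exon or site is used. Of the 110 events listed in the 7 genes, 91 had a PSI in all 4 libraries and coverage of at least LOW in 3 or more of them: 49 cassette exons, 25 with a choice of 3′ splice site (Alt3) and 17 with a choice of 5′ splice site (Alt5). Most of them varied little, with 82 of 91 ranging over less than 5 PSI across the libraries, and 38 of the 49 cassette exons had a mean PSI over 95. At a difference of 15 PSI or more, 1 of 91 events passed for knockdown in vehicle and 1 in Dex, beside 1.96% and 1.52% of all 57183 events compared. For Dex, 0 of 91 passed in siControl and 0 in siARGLU1, beside 0.719% and 0.948% of all events. A count of 1 of 91 is close to the share over all events, so the members as a group did not stand apart by number.

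The event that passed was the 39-nt exon of Upf3b in both pairs. Its PSI was 43.1 and 41.3 in the siControl vehicle and Dex libraries and 22.3 and 19.4 in those of siARGLU1, each with the best coverage score (SOK). The libraries fell into 2 groups by siRNA, with Dex and vehicle close together in each. The difference was -20.8 PSI in vehicle and -21.9 in Dex. Junction reads are not listed for cassette exons. In the Alt3 and Alt5 tables SOK stood for 100 reads or more, and at 100 reads per library, taken here as the fewest, the intervals would be -32.9 to -7.85 and -33.6 to -9.15. Dex differences were -1.85 PSI in siControl and -2.87 in siARGLU1, both within such intervals of 0. Over the series, 0.336% of events were lower by 15 PSI or more in both knockdown pairs. Among the 1941 cassette exons with a mean siControl PSI of 20 to 80, the range this exon lies in, the share was 5.15%. Of 13329 simple cassette exons with the best score in all libraries, 37 had a larger fall in vehicle and 18 in Dex. These were taken at any PSI, so they include exons too low in siControl to fall that far.

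Splitting the Upf3b level by this PSI gave 9.27 and 8.50 cRPKM with the exon in the siControl vehicle and Dex libraries, against 3.84 and 3.41 in those of siARGLU1. The remainder without the exon was 12.2, 12.1, 13.4 and 14.2 cRPKM in the same order. The lower total of Upf3b in siARGLU1 thus lay in the form that carries the capitals shown above, while the form without them was not lower. This split assumes that both forms are counted alike.

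**Figure D4:**
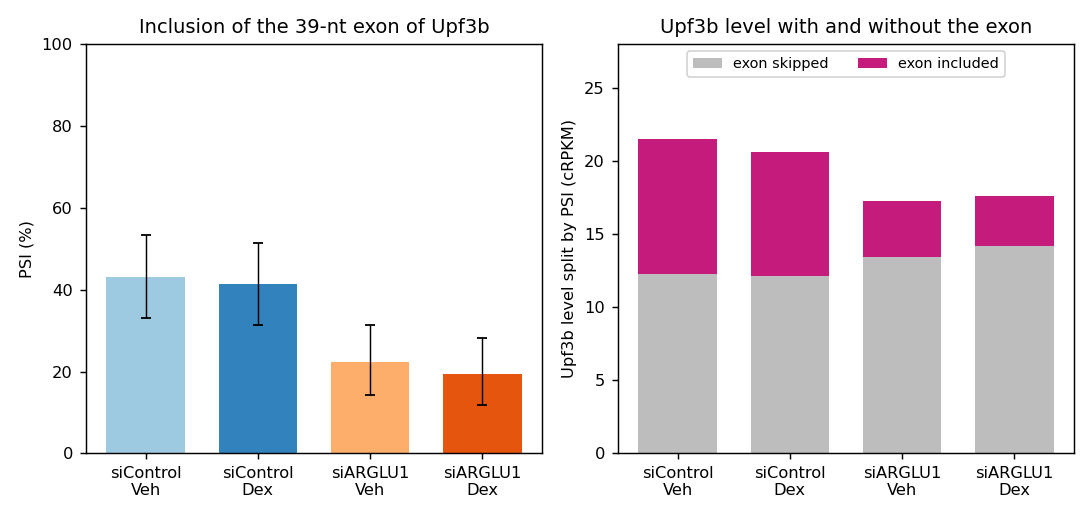
Left, PSI of the 39-nt exon of Upf3b in percent for each library, with exact 95% intervals for 100 junction reads, the fewest its score stands for in the Alt3 and Alt5 tables. Right, the Upf3b level in cRPKM divided by that PSI; the included form is lower in both siARGLU1 libraries and the skipped form is between 12.1 and 14.2 cRPKM in all 4.

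The Upf1 splice sites printed above did not follow the knockdown. The downstream site, which adds the 33 nt in capitals, had a PSI of 18.6 in siControl-Veh (237 junction reads, interval 13.8 to 24.1) and 12.95 with Dex (278 reads, 9.24 to 17.5). In siARGLU1 it was 13.3 with vehicle (105 reads, 7.49 to 21.4) and 17.5 with Dex (189 reads, 12.3 to 23.6). All 4 intervals overlap, and the difference was -5.23 PSI in vehicle and 4.54 in Dex. The short form was thus the main one in every library.

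The other 7 events with a range of 5 PSI or more were picked out after their values were seen. A 202-nt exon of Smg6 (exon 13 of 19 in Smg6-201, not a multiple of 3) had a PSI of 24.5 and 23.7 in the siControl vehicle and Dex libraries and 31.8 and 32.6 in those of siARGLU1. Its coverage in siARGLU1-Veh scored VLOW. An Alt3 site that lengthens the non-coding last exon of Upf1 by 107 nt had 89.1, 90.8, 85.3 and 82.6 in the same order, from 311, 370, 266 and 386 junction reads. Both events kept their direction across the pairs, and each differed by less than 10 PSI. An Alt3 site of Upf2 that adds 3 nt had 88.4, 84.9, 76.6 and 88.0, with 47 reads in siARGLU1-Veh (62.0 to 87.7), so its difference of -11.8 PSI in vehicle and 3.08 in Dex turned with the pair. A 247-nt exon of Smg1 was at 97.2, 100, 86.5 and 97.8, with a score of LOW in siARGLU1-Veh. The remaining 3, a 151-nt exon of Smg1, an 86-nt exon of Upf2 and an Alt5 site of Smg5 that adds 42 nt, stayed above 90 PSI in every library.

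**Figure D5:**
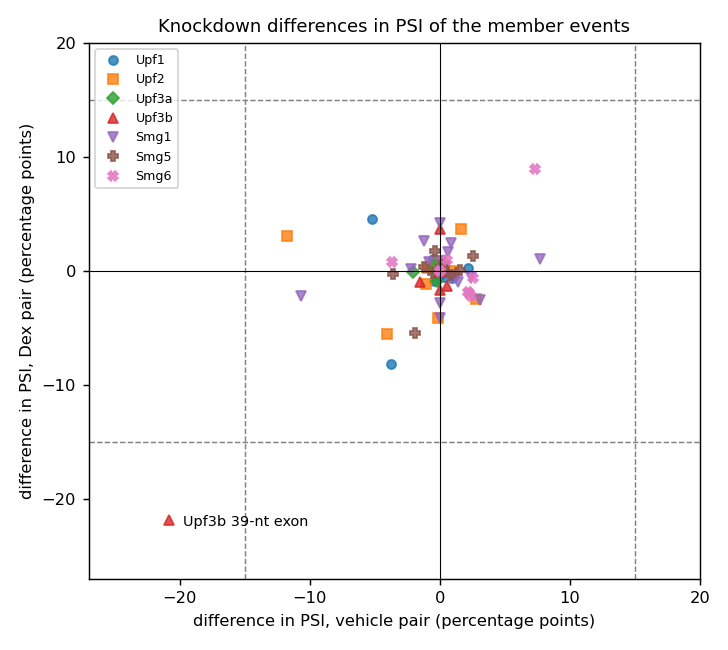
Difference in PSI for knockdown, in percentage points, in vehicle (horizontal axis) and in Dex (vertical axis) for the events compared in the 7 decay factors, 1 point per site, with dashed lines at 15. The 39-nt exon of Upf3b lies past both lines at the lower left, and the other points lie between -11.8 and 7.66 in vehicle and between -8.19 and 8.94 in Dex.

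Other genes of the pathway were taken as lists. Of 6 further NMD factors (Smg8, Smg9, Dhx34, Nbas, Ruvbl1 and Ruvbl2), 0 passed 0.81 in either pair, with medians of -0.24 and -0.23. Of 9 genes of the exon junction complex and its partners, 0 passed in either pair, with medians of 0.098 and 0.10. Without the length trend the Dex median turned to -0.058. Rnps1, a peripheral component of that complex, had log2 ratios of -0.58 and -0.74, and of -0.72 and -0.83 without the trend, past 0.81 in Dex. Of 15 termination, decapping and decay factors, 1 was lower in vehicle and 0 passed in Dex, with medians of -0.10 and -0.064, or -0.034 and -0.082 without the trend. That gene, Xrn1, the main cytoplasmic 5′ to 3′ exonuclease, had 1451 and 1393 reads in the siControl vehicle and Dex libraries and 592 and 1119 in those of siARGLU1, with log2 ratios of -1.27 and -0.60, and of -0.98 and -0.46 without the trend. Rnps1 and Xrn1 were chosen after their values were seen.

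Of 10 transcripts known as natural targets of the pathway, 7 were matched by symbol and compared, and 0 passed 0.81 in either direction in either pair. Gas5, Snhg1 and Snhg12 were not matched, so the list does not cover them. Their median log2 ratio was -0.15 in vehicle and -0.28 in Dex, and -0.37 and -0.27 with the length trend removed. Atf4, a stress transcription factor whose mRNA has upstream reading frames, had 0.52 and 0.33, and Gadd45b, a growth arrest gene, 0.40 and 0.63. The other 5 (Gadd45a, Atf3, Ddit3, Arc and Tbl2) lay below 0 in both pairs, of which Tbl2 turned to 0.16 and 0.076 without the trend. This small list held members on both sides of 0, as did the factors.

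Of 121 events compared in the termination, decapping and decay factors, 2 passed 15 PSI in vehicle and 1 in Dex, no larger a share than the 1.96% and 1.52% over all events. In the further NMD factors (33 events), the exon junction complex list (30) and the natural targets (20), 0 passed in either pair. The events that passed are named here after their values were seen. An Alt3 event of Dcp1b, which encodes a decapping cofactor, passed in both pairs, with a PSI of 61.6 and 56.3 in the siControl vehicle and Dex libraries and 81.5 and 81.3 in those of siARGLU1 for one of its sites. Its coverage scored LOW in both siControl libraries and OK in both siARGLU1 libraries. An Alt3 site of Xrn1 passed in vehicle alone, with 81.5, 73.7, 64.7 and 78.8 in the same order and scores of LOW or VLOW.

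Profiles over the 4 libraries were compared with those of 10251 genes with at least 1000 reads, by the root mean square difference of log2 CPM centred on each gene's mean. Among the nearest 3 genes were Spock2, Zfp236 and Btg2 for Upf1 (0.0081 to 0.010), Mbnl2, Vwf and Gpr146 for Upf2 (0.031 to 0.033), and Paox and Jmjd8 for Upf3a (0.0022 and 0.0041). They also held Odf2l and Hnrnpa1 for Upf3b (0.0041 and 0.0048), Srrm1, Usp24 and Dennd4b for Smg1 (0.0064 to 0.018), Usp40, Abcf1 and Ptprn for Smg5 (0.0064 to 0.016), and Arfgef1, Bach2 and Cbx5 for Smg6 (0.0091 to 0.018). No member was among the nearest 3 of another. The closest members to each other were Upf1 and Smg1 (0.070). With 4 libraries such likeness is a description only.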

How the data were processed

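The 7 members and the lists were chosen with earlier results of these data known. The authors deposited read counts per gene, not normalized, and RPKM corrected for mappability (cRPKM); 2 unnamed columns hold the authors' ratios of cRPKM and were not used. The authors also deposited PSI as a percent per library with a coverage score in words, made with vast-tools. The submitters' processing notes name Bowtie and mm9, without versions or an annotation. Libraries were TruSeq V2, polyA-enriched and not strand-specific.

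Counts were scaled by TMM (edgeR 4.0.16, R 4.3.3) and log2 CPM taken with a prior count of 1, for genes with at least 75 reads over the 4 libraries. Ratios have exact conditional binomial 95% intervals, which cover counting error only; differences between pairs have normal intervals on log2 reads, and PSI has Clopper-Pearson or, for differences, Newcombe intervals. Each group has 1 library, so the ratio within a pair has no test; the additive models below test only a knockdown effect common to both pairs, with 1 residual degree of freedom. Sizes were 0.81 (knockdown) and 1 (Dex) on the log2 scale and 15 PSI. Mappable length was computed from reads and cRPKM, and trends were removed with a lowess (span 0.3, 3 iterations, statsmodels 0.14.6). Sequences came from GENCODE M21 transcripts, matched by exon and intron lengths since the files use mm9. Sites of the same Alt3 or Alt5 event were merged, leaving out the reference site. Alternatives were DESeq2 1.42.0 size factors, total reads, cRPKM plus 0.1, a prior count of 5, no read minimum, length and GC trends, other sizes, additive edgeR and DESeq2 models, and other PSI and coverage limits. Scripts were tested on simulated data.

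Named genes were all members and Arglu1, list genes with at least 1000 reads past 0.81 on the same side in each pair, and the 3 nearest profiles per member; named events were those past 15 PSI, Upf1 sites 33 nt apart and the 39-nt Upf3b exon. Others are named as chosen after their values were seen. Some genes of the lists and of the nearest profiles are not reported here.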

Additional observations from a re-analysis of the deposited data

Results flagged for a closer look

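The Dex response of Smg5 and Smg6 had opposite signs in siControl and siARGLU1 cells, with both counting intervals apart from 0. For Smg5 the siControl log2 ratio was -0.041 (-0.074 to -0.0070), against 0.12 (0.093 to 0.15) for siARGLU1, a difference of 0.16. For Smg6 these were -0.058 (-0.12 to -0.00052) and 0.21 (0.13 to 0.29), a difference of 0.27. With 1 library per group, the differences were not tested. With the length trend removed, the siControl and siARGLU1 ratios were -0.021 and 0.041 for Smg5 and -0.028 and 0.081 for Smg6. The same shift takes both siControl intervals across 0. The signs thus stayed opposite, but the siControl ratios were then within counting error of 0.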

How the results depend on the processing

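Each group is 1 pooled library, so variation between cultures is unknown, and coverage limits what the low-PSI and low-score events can show. Removing the length trend left 1 member past 0.81 in vehicle and 1 in Dex, Upf2, and moved the members' median to -0.36 and -0.29. Of all 12484 genes, 886 were then lower by that size in vehicle and 700 in Dex. In vehicle, 3 members passed with total reads and with cRPKM, the third being Smg1. At these settings 1191 of 12497 and 1012 of 12484 genes were lower by 0.81 or more. In Dex, 1 member also passed with total reads, with cRPKM, without the read minimum and at a size of 1. The genes lower there were 730 of 12497, 606 of 12484, 1799 of 17277 and 472 of 12497, in that order. Additive models of the 4 libraries, which set the 2 knockdown pairs side by side and assume that knockdown and Dex do not interact, called 7 members with edgeR and 6 with DESeq2 at an adjusted p of 0.05, out of 7704 and 6003 of 12497 genes. Without a coverage minimum, 3 of 108 member events passed 15 PSI for knockdown in vehicle and 3 of 109 in Dex. The shares over all events were 7.04% and 6.45%. For Dex, 1 of 109 passed in siControl and 2 of 108 in siARGLU1, beside 5.64% and 6.01% of all events. At 25 PSI 0 passed in either knockdown pair, and at 10 PSI 3 passed in vehicle and 2 for Dex in siARGLU1. Of 196 single member ratios under these alternatives, 164 stayed within the counting interval and 32 moved out of it. A change of sign was counted only for called ratios, those of Upf2 and Smg6 for knockdown, and 0 of these changed. Ratios that were not called did change sign. Without the length trend, the ratio for Dex in siARGLU1 went from 0.29 to -0.021 for Smg1, from -0.11 to 0.0022 for Upf3a and from -0.0046 to 0.029 for Upf3b. No paired analysis was possible because the groups have no replicate numbers to pair; the additive models take vehicle or Dex as the block instead, with 1 residual degree of freedom.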
